A study of Mus musculus with 4 samples.

Results

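Gene expression in the old colon after 2 weeks on a high-fat or a low-fat diet was read from 1 pair of arrays, one hybridized with pooled colon RNA of old male C57BL/6J mice on a high-fat diet and the other with that of old mice on a low-fat diet. All features of the table with a single gene symbol and a linear signal over 50 on either of these arrays were taken, which gave 13564 of 35556 features and 12332 of 19938 genes. The brightest feature stood for a gene. The old mice were 21 months of age and the young mice, used here only to place the old values, were 4 months. Each age group received 2 weeks of a low-fat diet with 10% of its energy as fat or of a high-fat diet with 45%, after a run-in on the low-fat diet. In both diets palm oil took the place of lard. The RNA came from scrapings of mucosa and submucosa and was pooled in equal amounts, from 8 mice per old pool and 6 mice per young pool. Each group was therefore a single sample, so that no spread between mice, no standard error and no p-value could be had, and every value below describes these 4 pools on Mouse Gene 1.0 ST arrays. In such bulk RNA, more cells of a type and more RNA per cell cannot be told apart.

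The colon wall takes up water, salts and short-chain fatty acids, and its epithelium of colonocytes and goblet cells holds a dense microbiota at a distance with mucus and antimicrobial proteins. Most dietary fat is absorbed in the small intestine, and what remains reaches the colon with bile acids. Beneath the mucosa lie connective tissue, lymphoid follicles and, towards the mesentery, fat cells, which store triglyceride and secrete hormones such as adiponectin and resistin.

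The markers of the labelled tissue were present. All 16 colonocyte genes on the list were over the signal of 50, and all 11 goblet cell genes. Of 14 genes listed for the small intestine and Paneth cells, 11 were also over it, and on the old low-fat array Mptx1 had a signal of 3004, Slc10a2 2143, Fabp2 2086 and Fabp6 1722, so that this list did not set the tissue apart from the small intestine. The 3 at or under 50 on both old arrays were Lct, the lactase gene, with old signals of 29.7 and 28.6, Fabp1 and Defa24. The signal floor decided membership narrowly at its edge. Gm5901 and Hbq1b were just inside with a higher signal of 50.004 and 50.02, and Pald1 and Teddm1b were just outside with 49.97 and 49.97.

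Most genes differed little between the old pools. The median log2 difference (high-fat minus low-fat, here and throughout) was 0.01 over 12332 genes, with an SD over genes of 0.22, and the central 90% of genes lay between -0.33 and 0.36. Over 2.0-fold, 7 genes were higher with fat (0.0568% of 12332) and 6 were lower (0.0487%). Over 1.5-fold, 78 genes were higher (0.633%) and 64 lower (0.519%), and over 1.2-fold, 1331 were higher (10.8%) and 1108 lower (8.98%). The shares of 10.8% and 8.98% are the base beside which every list count over 1.2-fold below stands. After quantile normalization of the 4 columns, the 1.5-fold genes divided into 116 higher and 44 lower. The spread was similar at all brightness levels, with an SD over genes of 0.22, 0.23, 0.22, 0.22 and 0.20 in 5 equal bins from dim to bright genes. Of the 6 genes lower by over 2.0-fold, 4 were in the 2 dimmest bins and 2, Reg3b and Reg3g, in the brightest.

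**Figure D1:**
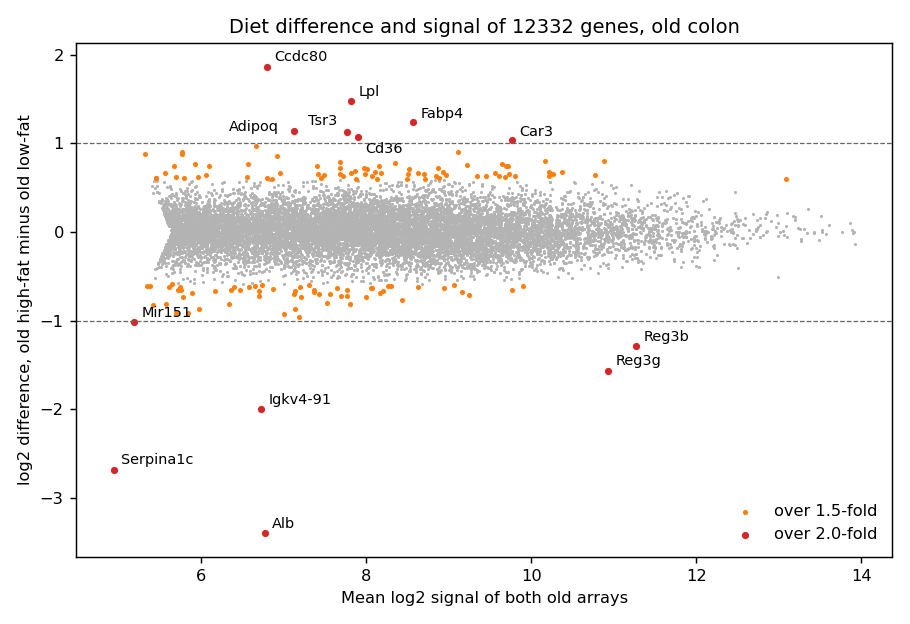
Each point is 1 of 12332 genes, placed by its mean log2 signal on both old arrays (horizontal) and its log2 difference, old high-fat minus old low-fat (vertical), with 1 array per diet and hence no error bars. The 13 genes past the dashed lines (2.0-fold) are named, and Alb and Ccdc80 lie farthest out.

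The young pools give counts to set beside these, because their arrays share no sample with the old pair, although all 4 arrays were normalized together. On the same genes, 9 were higher (0.073%) and 5 lower (0.0405%) over 2.0-fold on the young high-fat array than on the young low-fat array. Of the 9, 6 were on the smooth muscle list, and of the 5, 4 were on the adipocyte list. These young counts are thus no measure of a general difference between arrays. Over 1.5-fold the young counts were 98 higher (0.795%) and 77 lower (0.624%), and over 1.2-fold they were 1334 (10.8%) and 1355 (11%). The old count was the larger of the pair only for genes over 2.0-fold lower, 6 against 5. Across genes, the diet difference of the old mice ran against that of the young mice, with Pearson's r of -0.41 and Spearman's rho of -0.41 over 12332 genes, which are not independent replicates. Among the 3628 genes with a mean old signal over 500, r was -0.52. Of the 78 genes over 1.5-fold higher in old mice, 43 were over 1.2-fold lower with fat in young mice and 3 were over 1.2-fold higher. Of the 64 lower genes, 32 were over 1.2-fold higher with fat in young mice and 4 were over 1.2-fold lower. Signals of features with no gene symbol differed between the arrays in the same crossed pattern. Their median log2 signal was 5.80 on the old low-fat, 5.65 on the old high-fat, 5.63 on the young low-fat and 5.82 on the young high-fat array. Among the 6649 of them over the floor, 37 were over 2.0-fold higher and 296 over 2.0-fold lower on the old high-fat array. Gene span also differed between the directions at 1.2-fold. The median span from RefSeq was 21.9 kb for all member genes, 14.4 kb for the genes over 1.2-fold higher and 39.6 kb for those over 1.2-fold lower in old mice. In young mice the corresponding medians were 23.8 kb for higher and 19.2 kb for lower genes. At 1.5-fold the lower genes of old mice did not have long spans, with medians of 12.0 kb for higher and 14.3 kb for lower genes. The part of these array-wide patterns in any single gene's difference was not tested, and each gene below is therefore given with its signals on all 4 arrays.

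**Figure D2:**
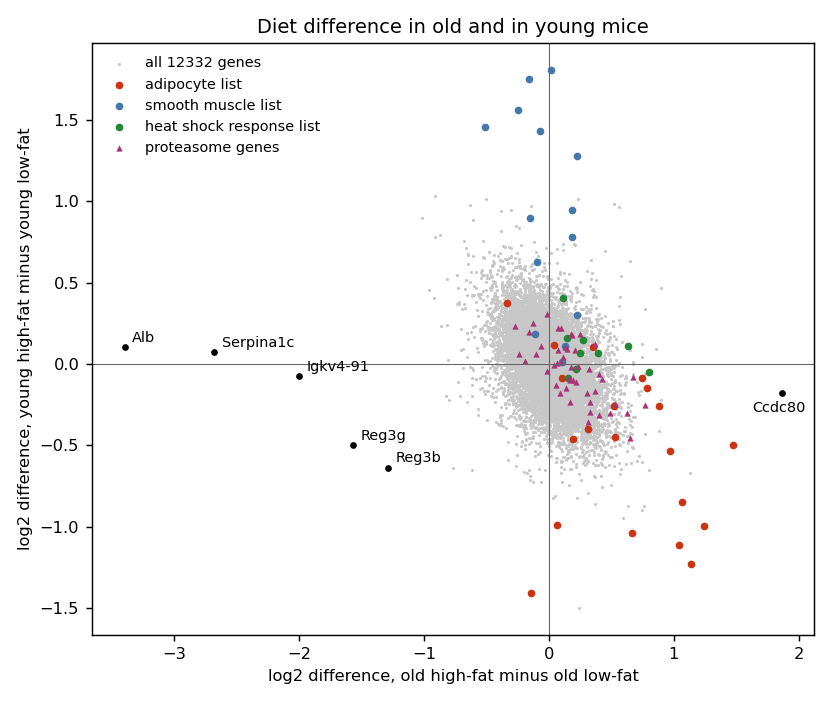
Grey points mark all 12332 genes by their diet difference on the log2 scale (high-fat minus low-fat), horizontally for the old pools and vertically for the young pools. The cloud slopes downward, with r of -0.41, the adipocyte genes lie at the lower right, the smooth muscle genes near 0 in old mice and high in young mice, and Alb, Serpina1c and Igkv4-91 far left with young differences near 0.

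Genes of fat cells made up most of the genes with the largest differences upward. Of the 7 genes over 2.0-fold higher, 5 belonged to the adipocyte list, namely Lpl, Fabp4, Adipoq, Cd36 and Car3. The adipocyte list held 24 measured genes, of which 20 were over the floor. Of these 20, 14 were over 1.2-fold higher (70%, beside 10.8% of all genes) and 1 over 1.2-fold lower (5%, beside 8.98%). Over 1.5-fold, 10 of the 20 were higher, beside 0.633% of all genes. The median log2 difference of the 20 was 0.60, beside 0.01 for all genes. In young mice the median of the same genes was -0.45. The signals summed over the 24 genes were 7158, 9753, 6896 and 5563 on the old low-fat, old high-fat, young low-fat and young high-fat arrays. The old high-fat array thus held the highest sum and the young high-fat array the lowest. By gene, 16 of the 20 had their highest signal on the old high-fat array (29.3% of all genes did) and 15 had their lowest on the young high-fat array (28.9% of all genes). The 4 adipocyte genes at or under the floor on both old arrays were Adig, Cidea, Lep and Ucp1.

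Lpl encodes lipoprotein lipase, which frees fatty acids from circulating triglyceride. Its linear signal was 135 on the old low-fat, 376 on the old high-fat, 203 on the young low-fat and 144 on the young high-fat array. The old high-fat signal lay above the other 3 arrays and was 2.78-fold that of the old low-fat array. For Fabp4, the fatty acid carrier of fat cells, the signals in the same order of arrays, which is kept below, were 247, 584, 213 and 107, a 2.37-fold difference in old mice. Adipoq, which encodes the hormone adiponectin, had signals of 94.1, 208, 81.9 and 35.0, a 2.21-fold difference. Both of these genes were also lower on the young high-fat than on the young low-fat array, so that the diets were ordered oppositely at the 2 ages. The fatty acid receptor gene Cd36 had signals of 165, 346, 104 and 57.6, a 2.10-fold difference in old mice. Car3, a carbonic anhydrase gene typical of fat and muscle, had the brightest of these signals, with 608, 1249.8, 488 and 226 and a 2.06-fold difference. For each of these 5 genes the old high-fat array was highest of the 4.

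Genes of the lipid droplet were also higher. Plin1 encodes perilipin 1, which guards the droplet against lipolysis, and had signals of 72.3, 142, 93.2 and 64.5, 1.96-fold higher with fat in old mice. Cidec, whose product drives droplet fusion, had signals of 156, 269.8, 165 and 149, 1.73-fold higher. Plin4, another droplet coat gene, had 52.7, 88.4, 55.9 and 52.8, 1.68-fold higher. For Cidec and Plin4, the other 3 arrays lay close together and the old high-fat array alone stood above them. Aqp7, the channel through which glycerol leaves the fat cell, was over 50 on the old high-fat array only, with 29.4, 54.1, 32.0 and 26.7, so that its 1.84-fold difference is not exact. Retn, which encodes resistin, had signals of 98.9, 157, 105 and 51.3. Lipe, the hormone-sensitive lipase gene, had 102, 147, 115 and 84.4, and Gpd1, which makes the glycerol backbone, had 279, 400.1, 317 and 265. All 3 were highest on the old high-fat array, by 1.59-, 1.44- and 1.43-fold against the old low-fat array.

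Other adipocyte genes did not share this pattern. Pparg, the master regulator of fat cell formation that is also expressed in colonocytes, had level signals of 945, 971, 937 and 1015. Scd1, a fatty acid desaturase gene, was similar on both old arrays and low on the young high-fat array, with 1092, 1142, 805 and 406. Slc2a4, the insulin-responsive glucose transporter gene of fat and muscle, was lower on the old high-fat array, with 75.1, 59.5, 67.5 and 87.6. Cyp2e1 had 191, 173, 115 and 43.5, with a log2 difference of -0.14 in old and -1.41 in young mice. Sncg, which encodes gamma-synuclein and is on none of the lists, had signals of 89.9, 163, 93.6 and 99.8 and was 1.81-fold higher on the old high-fat array.

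**Figure D3:**
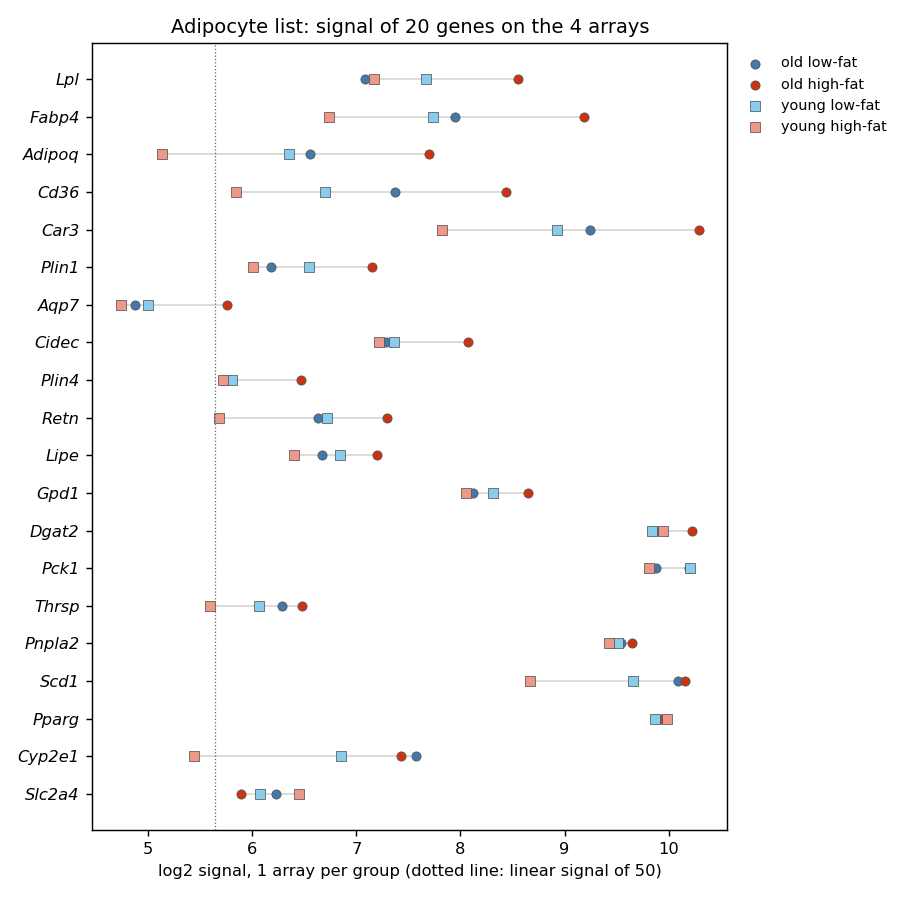
Log2 signal of the 20 adipocyte genes over the floor, 1 point per array, sorted by the log2 difference between the old arrays. The red circle of the old high-fat array is rightmost for 16 genes and the light red square of the young high-fat array leftmost for 15.

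The promoters of 3 fat cell genes are shown. The 3 were picked by hand from the 10 adipocyte genes over 1.5-fold higher, so that their matches are no result about the list. The windows are the 250 bases before the annotated start in RefSeq on GRCm38.p6, written 5′ to 3′ along the gene, and capitals mark the letters TTGCNNAA, a core site of the C/EBP factors of fat cell formation, searched on both strands. The Plin1 window is chr7:79732777-79733026 on the minus strand, that of Adipoq chr16:23146286-23146535 on the plus strand and that of Cd36 chr5:17835897-17836146 on the minus strand. The letters occurred at 2 places in the Plin1 window and not in those of Adipoq and Cd36, against 9.56% of all 32851 promoter windows with at least one match. A match is a description of the letters and not a bound site.
Plin1: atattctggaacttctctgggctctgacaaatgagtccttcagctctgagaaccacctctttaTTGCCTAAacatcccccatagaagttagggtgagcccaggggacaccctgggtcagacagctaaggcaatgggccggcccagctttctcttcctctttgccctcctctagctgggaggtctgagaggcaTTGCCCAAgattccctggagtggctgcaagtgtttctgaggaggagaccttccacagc
Adipoq: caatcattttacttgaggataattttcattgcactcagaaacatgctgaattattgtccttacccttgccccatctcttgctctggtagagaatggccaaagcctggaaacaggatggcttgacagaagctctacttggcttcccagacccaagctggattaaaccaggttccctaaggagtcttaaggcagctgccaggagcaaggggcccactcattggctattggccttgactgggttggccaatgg
Cd36: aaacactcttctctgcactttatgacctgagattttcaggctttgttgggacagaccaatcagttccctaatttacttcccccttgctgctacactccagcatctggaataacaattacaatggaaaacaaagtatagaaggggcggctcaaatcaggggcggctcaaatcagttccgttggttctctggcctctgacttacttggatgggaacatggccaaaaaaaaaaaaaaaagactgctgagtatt

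The gene with the largest difference upward was Ccdc80, which encodes a secreted matrix protein made by preadipocytes and fibroblasts. Its signals were 58.5, 213, 78.0 and 69.1, 3.64-fold higher on the old high-fat array, and the other 3 arrays were close to each other. Ccdc80 stood alone in the fibroblast list, whose 11 genes over the floor had a median of -0.01. None of the others was over 1.2-fold higher, and Dcn, which encodes the matrix proteoglycan decorin, was over 1.2-fold lower, with signals of 477, 347, 216 and 329.6. Among the matrix genes, 3 of 22 were over 1.2-fold higher (13.6%, near the 10.8% of all genes). The largest was Sparc, a collagen-binding protein gene, with 192, 291, 184 and 162. The other 2 were Col6a1 and Col6a2, both with a log2 difference of 0.32. The seventh gene over 2.0-fold higher was Tsr3, which encodes an enzyme of ribosomal RNA modification, with signals of 148, 324, 245 and 154. A second feature of Tsr3 gave a log2 difference of 0.76 in old mice. In both ages Tsr3 differed by diet, in opposite directions.

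Genes for the uptake and storage of fatty acids were higher on the high-fat diet in part, including genes not specific to fat cells. Of 26 such genes over the floor, 13 were over 1.2-fold higher (50%, beside 10.8% of all genes) and none over 1.2-fold lower. Their median log2 difference was 0.26. After the genes shared with the adipocyte list were left out, 8 of 20 were over 1.2-fold higher (40%) and the median was 0.17. Plin2, the droplet coat gene of most cells including enterocytes, had the largest difference of these, with signals of 1221, 1785, 1618 and 1262, 1.46-fold higher on the old high-fat array. Gpihbp1, which anchors lipoprotein lipase to capillaries, had 43.7, 58.3, 53.6 and 47.3, under 50 on the old low-fat array. Mgll, the monoglyceride lipase gene, had 189.9, 253, 321 and 331, so that both old arrays lay below both young arrays. The fatty acid transporter gene Slc27a4 had 489, 622, 598 and 533. The acyltransferase gene Dgat2, which completes triglyceride and is on both lists, had 934, 1194, 918 and 988. Mogat2, the enzyme gene for monoacylglycerol reuse in the intestine, had 79.8, 99.0, 87.6 and 86.1. These genes were 1.24- to 1.46-fold higher on the old high-fat array. Fabp2 (log2 difference 0.16), Acsl5 (0.14), Mttp (-0.05) and Fabp5 (0.00), which carry, activate and export fatty acids, were within 1.2-fold.

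Fatty acid oxidation differed less. Of 25 oxidation genes and targets of PPAR-alpha, the nuclear receptor that senses fatty acids, 4 were over 1.2-fold higher and none over 1.2-fold lower, and the median was 0.05. The 4 were Plin2, the peroxisomal thiolase genes Acaa1b and Acaa1a, and Acadvl, the first enzyme gene of long-chain oxidation in mitochondria. Acaa1b had signals of 178, 246, 197 and 206 and Acadvl had 815, 1064, 1126 and 826. On Acadvl the old low-fat and young high-fat arrays were alike, and so were the old high-fat and young low-fat arrays. The established PPAR-alpha targets Cpt1a, Pdk4 and Angptl4 had log2 differences of 0.05, -0.12 and 0.24, all within 1.2-fold. Of 15 fatty acid synthesis genes, 2 were over 1.2-fold higher (Acly and Acacb, with log2 differences of 0.38 and 0.33) and 1 was lower (Me1, the malic enzyme gene that supplies NADPH, -0.43). Their median was 0.10 in old and -0.29 in young mice. Among 19 cholesterol synthesis genes, 5 were over 1.2-fold higher and the median was 0.03. The 5 were Pmvk, Lss, Mvd, Tm7sf2 and Fdps, and Sqle, which encodes squalene epoxidase, had a log2 difference of -0.07. For bile acid handling the median over 10 genes was -0.01. Its lowest member was Fabp6, the ileal bile acid carrier gene, with 1722, 1202, 461 and 674, and its highest was Nr1i2, the pregnane X receptor gene, with a log2 difference of 0.41. Cyp3a25, a cytochrome P450 gene of a family under that receptor, had 72.9, 125, 50.4 and 63.6 and was 1.71-fold higher on the old high-fat array.

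**Figure D4:**
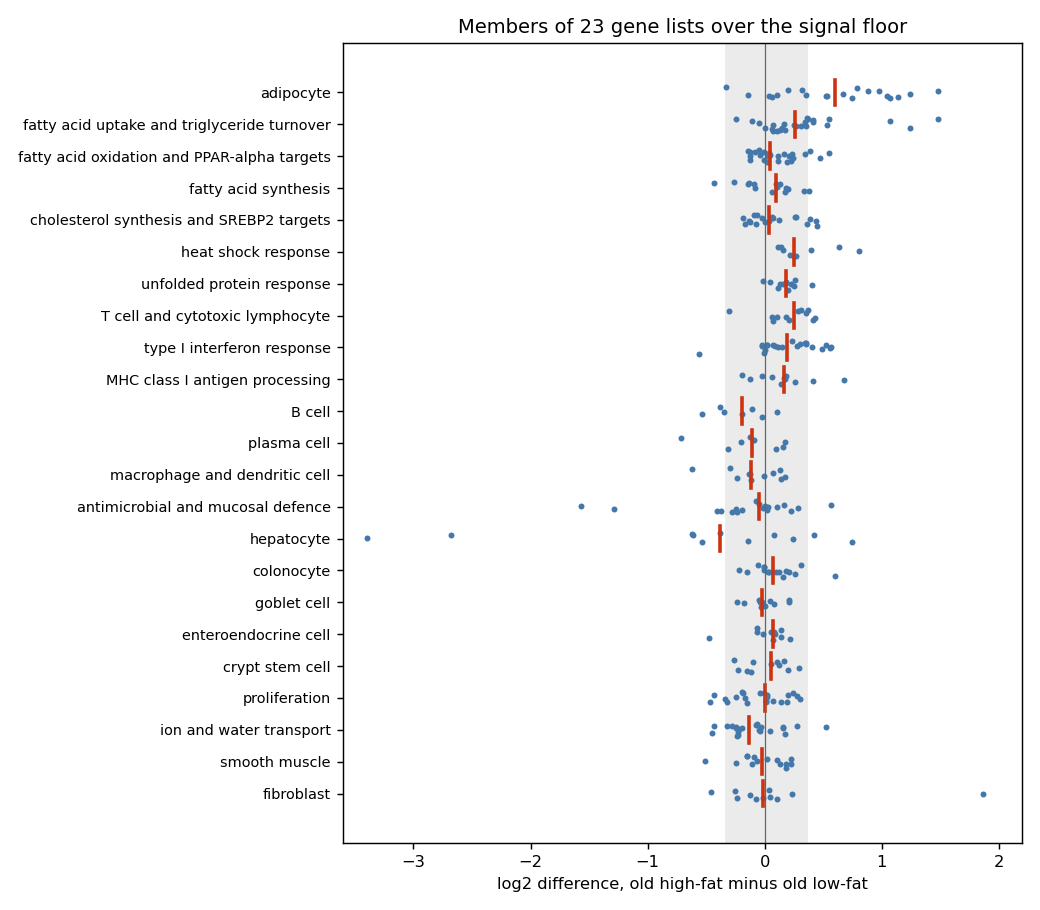
Log2 difference, old high-fat minus old low-fat, of each member over the signal floor in 23 gene lists, 1 blue point per gene, with the list's median as a red bar and the central 90% of all 12332 genes in grey. The adipocyte list is the only one of these with its median outside the grey band to the right, and the hepatocyte list the only one to the left.

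Among the genes over 1.5-fold lower on the high-fat diet, a pair of antimicrobial lectins of the epithelium had the highest mean old signals. Reg3g and Reg3b encode secreted C-type lectins that bind bacteria, and both are induced in epithelium through interleukin-22 and STAT3. Reg3g had a signal of 3366 on the old low-fat, 1137 on the old high-fat, 1927 on the young low-fat and 1366 on the young high-fat array. It was 2.96-fold lower on the old high-fat than on the old low-fat array, which stood highest of the 4. Reg3b had signals of 3872, 1587, 3536 and 2274 and was 2.44-fold lower. In young mice both were lower with fat too, with log2 differences of -0.50 for Reg3g and -0.64 for Reg3b. They were thus the only genes over 2.0-fold lower in old mice that were also over 1.2-fold lower in young mice. Within each age, the low-fat array was the higher one for both genes.

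The rest of the defence list did not go with them as a whole. Of 19 defence genes over the floor, 5 were over 1.2-fold lower and 2 over 1.2-fold higher, with a median of -0.05. The other lower genes were Fut2, a fucosyltransferase gene of the epithelial surface, with signals of 1934, 1458, 1679 and 1544, and Duox2 and Duoxa2, the genes of the hydrogen peroxide-producing oxidase of the epithelium and of its maturation factor. Duoxa2 had 478, 368, 295 and 273 and Duox2 had 741, 611, 598 and 513. In each of the 3 the old low-fat array was highest. The 2 higher genes were Reg4, a lectin gene of secretory cells, with 1527, 2264, 1292 and 1719, and the acute-phase gene Saa1, with 2272, 2758, 2854 and 2148. Ang4, Zg16 and Lypd8, further secreted defence proteins, had log2 differences of -0.00, -0.05 and -0.02. Lcn2, Camp and Reg3a were at or under the floor on both old arrays.

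Other genes that were lower on the high-fat diet and highest on the old low-fat array belonged to no single list. Socs3, the feedback inhibitor of STAT3 signalling, had signals of 241, 148, 140.3 and 163 and was 1.63-fold lower on the old high-fat array. A second, dimmer feature of Socs3, under 50 on both old arrays, had a log2 difference of 0.13. Other genes of its family were not alike. Socs1 was level, with 105, 102, 101 and 97.9, and Socs4 was 1.60-fold lower in old mice but highest on the young high-fat array, with 726, 453, 481 and 813; both were named after their values were seen. Steap4, a metalloreductase gene induced in inflammation, had 178, 109, 98.5 and 105, 1.63-fold lower. Tifa, an adaptor gene of NF-kappaB signalling, had 1178, 771, 736 and 863 and Stom, which encodes the membrane protein stomatin, had 1091, 692, 749 and 637. For Socs3, Steap4, Tifa and Stom the old high-fat signal lay within 1.2-fold of at least 1 young array, and the old low-fat array alone stood apart. Osmr, the oncostatin M receptor subunit gene, had 75.1, 46.6, 38.1 and 37.5, and was named after its values were seen. The 14 cytokine and chemokine genes over the floor had a median of -0.12. Of these 14, 4 were over 1.2-fold lower (28.6%, beside 8.98% of all genes) and 1 higher (7.14%, beside 10.8%). By array, 8 of the 14 were highest on the old low-fat array (57.1%, beside 25.1% of all genes). Il22ra1, the receptor subunit gene for interleukin-22, had a log2 difference of -0.19, and Il6, Il1b and Il17a were at or under the floor.

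The promoters of Reg3b, Reg3g, Socs3 and Steap4 are printed. These genes were picked by hand from the 64 genes over 1.5-fold lower, so that their matches are no result about the lower genes. A match describes the letters and is not a bound site, and a part of STAT factors in these differences was not tested. Capitals mark TTCNNNGAA, the letters of a STAT site, searched on both strands in the 250 bases before the start. The windows are chr6:78370635-78370884 on the plus strand for Reg3b, chr6:78468875-78469124 on the minus strand for Reg3g, chr11:117969367-117969616 on the minus strand for Socs3 and chr5:7960222-7960471 on the plus strand for Steap4, all from RefSeq on GRCm38.p6. The Reg3b, Socs3 and Steap4 windows each held 1 match, starting 129, 154 and 116 bases before the start, and the Reg3g window held none. Of all 32851 windows, 7.02% held a match. Aligned to each other, the Reg3b and Reg3g windows were identical at 187 of 267 columns (70.0%), including an unbroken run of 20 bases that ends at the start.
Reg3b: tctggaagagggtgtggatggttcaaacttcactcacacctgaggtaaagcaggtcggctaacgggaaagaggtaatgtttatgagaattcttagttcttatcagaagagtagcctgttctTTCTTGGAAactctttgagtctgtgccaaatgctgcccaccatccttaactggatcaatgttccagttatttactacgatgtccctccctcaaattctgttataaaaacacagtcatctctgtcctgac
Reg3g: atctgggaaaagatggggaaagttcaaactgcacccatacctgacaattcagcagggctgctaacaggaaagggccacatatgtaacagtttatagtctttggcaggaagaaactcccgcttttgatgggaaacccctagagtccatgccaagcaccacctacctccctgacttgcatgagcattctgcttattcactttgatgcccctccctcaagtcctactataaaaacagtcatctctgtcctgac
Socs3: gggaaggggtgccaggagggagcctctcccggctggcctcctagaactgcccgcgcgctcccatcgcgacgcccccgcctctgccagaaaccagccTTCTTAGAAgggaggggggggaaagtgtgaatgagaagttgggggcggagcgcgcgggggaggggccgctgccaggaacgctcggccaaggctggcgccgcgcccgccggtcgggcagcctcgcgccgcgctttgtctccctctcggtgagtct
Steap4: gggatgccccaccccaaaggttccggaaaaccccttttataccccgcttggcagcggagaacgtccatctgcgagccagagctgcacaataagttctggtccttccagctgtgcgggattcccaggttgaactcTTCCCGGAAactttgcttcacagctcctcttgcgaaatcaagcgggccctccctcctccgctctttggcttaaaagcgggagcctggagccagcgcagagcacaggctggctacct

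The largest differences of all were in liver genes, through the old low-fat array alone. Alb encodes albumin, the main protein of blood plasma, and had a signal of 355 on the old low-fat, 33.7 on the old high-fat, 29.8 on the young low-fat and 32.0 on the young high-fat array. Only the old low-fat array was over 50, and the 10.5-fold difference was against a signal under the floor and is not exact. Serpina1c, an alpha-1 antitrypsin gene of mouse liver whose near-identical copies can share probes, had 77.6, 12.1, 11.2 and 11.8, a 6.41-fold difference with the same limit. Of 23 measured hepatocyte genes, 11 were over the floor, and of these 6 were over 1.2-fold lower and 2 over 1.2-fold higher on the high-fat diet. The 12 others were at or under 50 on both old arrays, and 5 of them, Fgb, Ahsg, Fgg, Kng1 and Serpina1d, were over 1.5-fold lower. Differences between signals under the floor are not exact. The share of all genes under the floor past 1.5-fold was not counted, so these 5 add no support for a lower list. Fgb, a fibrinogen chain gene, had 47.1, 22.1, 30.6 and 21.6, and Ahsg, the fetuin-A gene, had 31.1, 14.8, 15.3 and 15.8. Among genes over the floor, Apoc3 had 66.7, 43.4, 53.9 and 49.3 and Hpx, the heme carrier hemopexin, had 50.2, 32.9, 50.5 and 32.2. The signals summed over the 23 genes were 3043, 2392, 2257 and 1950.3. The 2 higher genes are also made outside the liver. Trf, the transferrin gene, had 220.1, 369, 223 and 119.9, and Hp, the haptoglobin gene, had 43.3, 58.1, 46.4 and 38.8, both highest on the old high-fat and lowest on the young high-fat array. Tat, which degrades tyrosine, was bright on every array, with 980.4, 676, 745 and 737. Leaving out genes under 50 on either old array moved the list's median from -0.38 to -0.03.

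Immunoglobulin genes were lower on the high-fat diet, and their level set the old arrays apart from the young ones. Igha, which encodes the heavy chain of the IgA secreted into the gut, had a signal of 775 on the old low-fat, 473 on the old high-fat, 93.0 on the young low-fat and 81.2 on the young high-fat array. It was 1.64-fold lower with fat in old mice, and a second feature gave a log2 difference of -0.67. Both old signals were several times either young signal. Igkv4-91, a light chain variable segment, had 212, 53.0, 32.3 and 30.7, 4.00-fold lower. Its young signals were under 50. Of 7 immunoglobulin segments and constant regions over the floor, 4 were over 1.2-fold lower and 1 over 1.2-fold higher. These genes share sequence, so that probes may not tell them apart. Jchain, which joins IgA into dimers, had 1253, 1009, 426 and 469, 1.24-fold lower. Igha and Jchain are also on the plasma cell list, whose median was -0.11 over 8 genes over the floor. None of the 6 others was over 1.2-fold apart, and their median was 0.00. Among B cell genes, 3 of 7 over the floor were over 1.2-fold lower and none higher, with a median of -0.20. These 3 were Cr2, the complement receptor gene of follicular cells, with 85.6, 59.2, 46.9 and 42.4, Ms4a1, which encodes CD20, with 97.1, 74.6, 45.0 and 34.9, and Fcrla. The signals summed over 11 B cell genes were 783, 709, 554 and 478, highest on the old low-fat array.

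**Figure D5:**
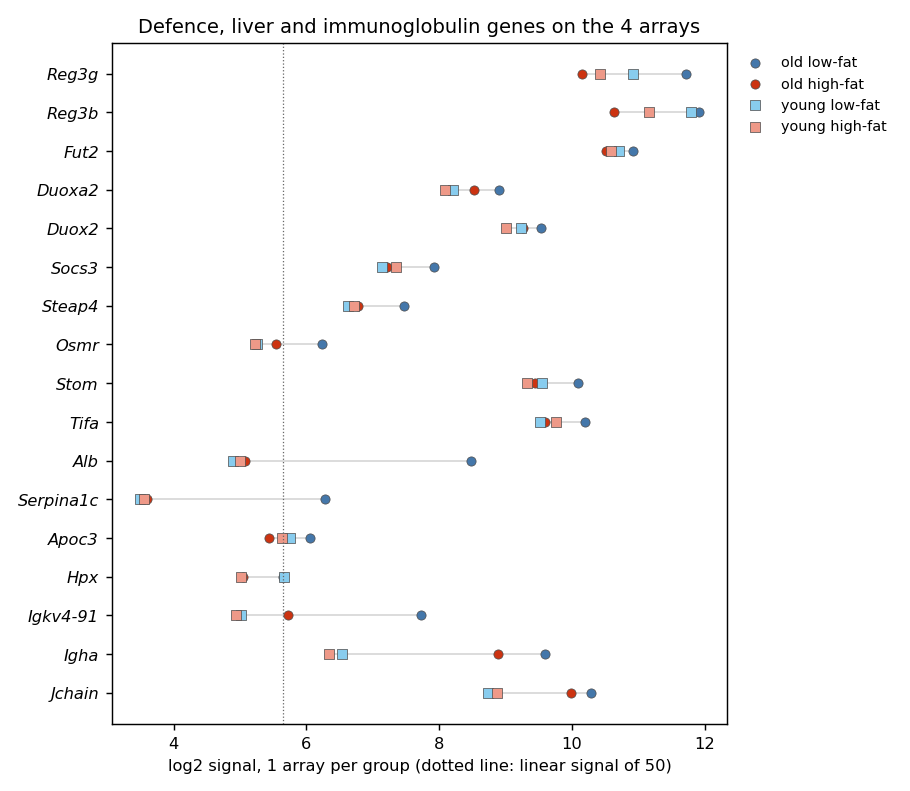
Log2 signal of 17 genes, namely defence, liver and immunoglobulin genes with Socs3, Steap4, Osmr, Stom and Tifa, 1 point per array, with a dotted line at a linear signal of 50. The blue circle of the old low-fat array is rightmost for all but Hpx, and for Alb and Serpina1c the other 3 arrays lie together below the line.

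T cell genes pointed the other way. Of 12 T cell and cytotoxic genes over the floor, 6 were over 1.2-fold higher on the high-fat diet (50%, beside 10.8% of all genes). Icos, a co-stimulatory receptor gene, was the 1 over 1.2-fold lower, and the list's median was 0.25. Itgae encodes the integrin that holds lymphocytes in the epithelium and had signals of 108, 144, 74.4 and 75.0. Ccl5, a chemokine gene of cytotoxic cells, had 616, 819, 341 and 349.9, and Cd8a had 281, 359, 131 and 175. For 10 of the 12 genes the old high-fat array was highest of the 4, and none was over 1.5-fold apart between the old arrays. The signals summed over 16 genes were 2173, 2618, 1299.9 and 1436, both old sums being above both young sums. Macrophage and dendritic cell genes had a median of -0.12. C1qb, a chain of the complement component C1q, was 1.54-fold lower with 118, 77.1, 67.7 and 59.0, while C1qa and C1qc, the genes of its partner chains, had log2 differences of -0.13 and -0.12. Cfb, the complement factor B gene of the alternative pathway, was higher, with 1049, 1677, 1410.1 and 988.

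Interferon response genes were higher in part. Type I interferons are antiviral cytokines that induce a broad set of genes in the cells they reach. Of 22 response genes over the floor, 10 were over 1.2-fold higher on the high-fat diet (45.5%, beside 10.8% of all genes) and 1 lower. Their median was 0.19 in old and 0.05 in young mice. Oas3, which makes the activator of RNase L, had 128, 189, 71.4 and 61.5. Stat2, the signal transducer gene, had 249.9, 368, 249 and 194, and Irf7 had 763, 975, 470.2 and 522. Oasl1 and Ifit3 had log2 differences of 0.52 and 0.49. The exception was Ifit2, with 92.8, 62.7, 31.3 and 25.8, which was lower by 1.48-fold. For 18 of the 22 genes the old high-fat array was the highest. In antigen processing for MHC class I, the proteasome activator gene Psme2 had 944, 1508, 1106 and 1047 and the peptide transporter gene Tap2 had 241, 320.4, 223 and 203. The median of that list was 0.16, beside -0.05 for MHC class II genes and -0.02 for genes induced by interferon-gamma.

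Heat shock genes, each read by its brightest feature, were lowest on the old low-fat array. All 9 heat shock genes had a positive difference, 4 of them over 1.2-fold, with a median of 0.25. All 9 also had their lowest signal of the 4 arrays on the old low-fat array, against 22.5% of all genes. This depended on the feature for Hspd1. Its second feature had log2 signals of 11.03, 11.11, 10.98 and 11.25 in the order of arrays kept above, lowest on the young low-fat array. Hsph1, which encodes the co-chaperone HSP110, had a signal of 872 on the old low-fat, 1520.4 on the old high-fat, 1544 on the young low-fat and 1495 on the young high-fat array. The old high-fat signal was 1.74-fold above the old low-fat signal and lay between the young signals. Hspa1a, the stress-induced HSP70 gene, which has a near-identical neighbour, had 169, 262, 319.5 and 345, and Hsp90aa1 had 2679, 3528, 3331 and 3499. For Hspa1a the old high-fat signal stayed below both young signals. In the unfolded protein response of the endoplasmic reticulum, 11 of 12 genes had a positive difference, with a median of 0.18, and only Hspa5, the gene of the chaperone BiP, was over 1.2-fold higher, with 3330.0, 4411, 3969.6 and 3544. Of these 12 genes, 6 were lowest on the old low-fat array. The Hspa1a promoter, chr17:34972157-34972406 on the minus strand in GRCm38.p6, is shown with the letters GAANNTTC of a heat shock element in capitals. Both strands were searched, and the 1 match began 104 bases before the start. Of all 32851 windows, 6.69% held a match.
Hspa1a: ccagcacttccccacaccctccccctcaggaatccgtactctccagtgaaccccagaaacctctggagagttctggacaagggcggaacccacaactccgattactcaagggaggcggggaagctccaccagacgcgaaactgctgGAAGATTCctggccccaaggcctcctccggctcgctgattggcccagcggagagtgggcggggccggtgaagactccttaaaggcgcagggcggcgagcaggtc

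Proteasome and respiratory chain genes were higher by small amounts. Of 48 proteasome genes, 16 were over 1.2-fold higher (33.3%, beside 10.8% of all genes) and 1 lower. Their median was 0.17 in old and -0.03 in young mice. The 4 over 1.5-fold were Psmd6, with 613, 1045, 817 and 685, Psme2, Psmc5, with 681, 1070.3, 1039.8 and 758, and Psma7, with 525, 810.2, 699 and 568. The ATPases of the regulatory particle had the highest median of its parts, 0.37 over 7 genes, beside 0.18 over 17 genes of the catalytic core. Of 85 respiratory chain and ATP synthase genes, 23 were over 1.2-fold higher (27.1%, beside 10.8% of all genes) and 1 lower, with a median of 0.17. The medians of complexes I, II, III and IV and of ATP synthase were 0.19, 0.16, 0.17, 0.16 and 0.15. The 3 over 1.5-fold, all of complex I, were Ndufa9, with 1404, 2199, 1856 and 1382, Ndufb3, with 136, 214, 157 and 167, and Ndufb11, with 955, 1479, 1249 and 1059.8. Psmc5, Psma7 and these 3 were named after their values were seen. Cytosolic ribosomal protein genes had a median of 0.10, with 8 of 67 over 1.2-fold higher (11.9%), a share near the 10.8% of all genes. The zinc finger protein genes, a family of transcription factors, leaned downward. Of 267, 45 were over 1.2-fold lower (16.9%, beside 8.98% of all genes) and 16 higher (5.99%, beside 10.8%). Their medians were -0.07 in old and 0.06 in young mice. After quantile normalization 28 were lower and 25 higher in old mice, with a median of -0.01.

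Most lists of epithelial cell types had medians near 0. The medians were 0.07 for colonocyte, -0.02 for goblet cell, 0.07 for enteroendocrine, 0.05 for crypt stem cell and 0.00 for proliferation genes. The tuft cell list had a median of 0.20, with 2 of 5 genes over 1.2-fold higher (Sh2d6 and Avil), and the list of small intestine and Paneth cells one of 0.16, with 5 of 11 over 1.2-fold higher and 1 lower. No goblet cell gene was over 1.2-fold apart. In the colonocyte list, Krt19, a keratin gene of simple epithelium, was 1.51-fold higher with 7054, 10665, 10410.1 and 7711, and Vil1, the villin gene of the brush border, had a log2 difference of 0.31. Keratin genes were higher more widely, with 8 of 16 over 1.2-fold higher, none lower, and a median of 0.28 in old and -0.11 in young mice. Among 22 ion and water transport genes, 4 were over 1.2-fold lower (18.2%, beside 8.98% of all genes) and 2 higher (9.09%, beside 10.8%). Their median was -0.13. The bicarbonate transporter gene Slc4a4 had 846, 627, 826 and 1054 and the sodium-hydrogen exchanger gene Slc9a3, which drives salt uptake, had 2548, 2032, 2341 and 2098. Sgk1, the kinase gene that raises sodium channel activity, had 982, 719.6, 779 and 678. The potassium channel gene Kcnn4 went the other way, with 410.0, 589, 505 and 328. Smooth muscle genes, a measure of the muscle layer taken along in a scraping, had a median of -0.03 in old mice and 0.92 in young mice. The signals summed over the 14 muscle genes were 3421, 3061, 3086 and 5930.1, so that the old arrays were near each other and the young high-fat array stood apart. Only Acta2, the smooth muscle actin gene, was over 1.2-fold apart in old mice, with 989, 694, 718 and 1972. Genes of the pancreatic acinar cell, the enzyme-secreting cell of a neighbouring gland, had a median of 0.23 over 7 of 20 genes over the floor. The summed acinar signals were 10870.3, 12907, 9228 and 7716. Most of each sum was Sycn, the syncollin gene, with 9583, 11491, 7775 and 6416. Without Sycn the sums were 1287, 1416, 1453 and 1300.2, and 13 of the 20 genes were at or under the floor on both old arrays. The part of these other tissues in the differences of adipocyte and liver genes was not tested. With the lists of fat, liver, muscle, mesothelial, nerve and acinar genes left out, 6 genes remained over 2.0-fold, 2 higher (Ccdc80 and Tsr3) and 4 lower (Reg3b, Reg3g, Igkv4-91 and Mir151).

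Further epithelial and housekeeping genes were among the brightest that differed. Hkdc1, a hexokinase gene of epithelia, had signals of 406, 757, 608 and 523 and was 1.87-fold higher on the old high-fat array. Sult2b1, a cholesterol sulphotransferase gene, had 249, 425, 298 and 285. Pdzk1ip1, a membrane protein gene of epithelia, had 458, 775, 766 and 419 and Cndp2, a dipeptidase gene, had 649.8, 1091, 1163 and 768. In both of the latter the old high-fat and young low-fat arrays were close and the other pair lower. Ufc1, which conjugates the ubiquitin-like protein UFM1, had 643, 1074, 795 and 710.3. Of 13 glycolysis and hypoxia genes over the floor, 3 were over 1.2-fold higher (23.1%, beside 10.8% of all genes). On the other side, 2 were over 1.2-fold lower (15.4%, beside 8.98%), and the list's median was 0.12. Among the higher ones, Pfkl, the phosphofructokinase gene of liver type, had 601, 955, 973 and 682. Hk2, a hexokinase gene, had 1039, 1388, 1156 and 716. On the lower side, Mfsd2a, which carries lysophospholipids, had 107, 60.9, 55.7 and 65.9, and the old low-fat array stood alone. Rdh18-ps, a retinol dehydrogenase pseudogene, had 452, 266, 349.5 and 224, lower with fat at both ages. Tppp3, a tubulin polymerization gene, had 267, 162, 297 and 275, with the old high-fat array alone low. The histone gene H2bc3 had 189.7, 104, 156 and 183. Eid3, Msantd2, Mindy2 and D3Ertd751e had log2 differences of -0.81, -0.74, -0.74 and -0.92 in old and 0.52, 0.37, 0.55 and 0.41 in young mice. A second, dimmer feature of Mindy2 differed less, with -0.26 in old and 0.31 in young mice. The bright genes Socs4, Pcf11, Bche and B930095G15Rik had -0.68, -0.54, -0.53 and -0.60 in old and 0.76, 0.16, 0.58 and 0.48 in young mice. For all 8 of these the diet difference had the opposite sign in young mice.

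Small RNA genes were represented by features that read total RNA at the locus, which do not measure the mature RNA. Of 77 microRNA genes over the floor, 6 were over 1.2-fold higher with fat and 14 lower, with a median of 0.01. After quantile normalization these counts were 11 higher and 8 lower. The 4 over 1.5-fold were all lower, namely Mir151, with 51.9, 25.7, 33.1 and 61.7, Mir687, with 71.3, 37.9, 46.7 and 80.2, Mir103-2, with 208, 132, 156 and 209.5, and Mir186, with 51.5, 33.9, 34.7 and 64.3. Mir151 was the only one over 2.0-fold, against a signal under 50. In all 4 the young high-fat signal was the highest of the 4 arrays and the old high-fat signal the lowest. For Mir151, Mir687 and Mir186 the lowest place was decided among signals under 50, where the order is not exact. For Mir103-2 the highest place rested on 209.5 against 208. The mature sequences of 3 of the 4 were in RefSeq on GRCm38.p6 and are given to identify them, with the seed (bases 2 to 8) in capitals. No 2 of the 5 share a seed. They lie at chr2:131288066-131288088 on the plus strand and chr2:131288103-131288125 on the plus strand for Mir103-2, chr3:157544285-157544306 on the plus strand and chr3:157544324-157544345 on the plus strand for Mir186 and chr14:73206808-73206829 on the minus strand for Mir687.
mmu-miR-103-2-5p: aGCUUCUUuacagugcugccuug
mmu-miR-103-3p: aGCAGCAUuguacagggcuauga
mmu-miR-186-5p: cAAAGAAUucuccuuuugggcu
mmu-miR-186-3p: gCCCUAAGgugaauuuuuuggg
mmu-miR-687: cUAUCCUGgaaugcagcaauga

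Of 46 small nucleolar RNA genes over the floor, 10 were over 1.2-fold higher and 10 lower. Snora44, a guide of ribosomal RNA pseudouridylation, had 244, 139.7, 191 and 164. Rmrp, the RNA of the RNase MRP complex that processes ribosomal RNA, had 1427, 2491, 1737 and 1104, 1.75-fold higher on the old high-fat array.

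Relative to the young arrays, the genes that differed by diet in old mice were of several kinds. Only genes over 50 on at least 2 of the arrays were placed, which left out Alb and Serpina1c. Of the other 11 genes over 2.0-fold, 5 had both old arrays on the same side outside the range of the young arrays, 5 had the old arrays outside it on opposite sides, and for 1 only the old high-fat array was outside. Of 71 such genes over 1.5-fold higher, 38 (53.5%) had the old low-fat array below and the old high-fat array above both young arrays, beside 17.2% of all genes so placed with the old arrays on opposite sides. Genes past 1.5-fold were chosen for a wide gap between the old arrays, which by itself makes opposite sides more frequent. The 17.2% also counts both directions, so the 2 shares are not alike. For 18 of the 71 only the old high-fat array was outside and for 7 only the old low-fat array. Of 56 lower genes, 21 lay on opposite sides, for 10 only the old high-fat array was outside, for 12 only the old low-fat array, and for 10 both were outside on the same side. These counts describe where the values lie and carry no test.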

How the data were processed

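Pooled colon RNA of 4 groups of mice was hybridized to 4 Mouse Gene 1.0 ST arrays, 1 per group, which limits the precision to that of single measurements. The authors normalized the arrays with RMA, whose version and probe annotation build are not given in the sources used here, and deposited log2 signals, 35556 per array, on the manufacturer's transcript clusters, although the study's methods describe gene-based probe sets. Genes were named through the platform annotation, in which 21789 features have 1 gene symbol, 1621 have several and 12146 have none. Of the 13564 features used, 13536 matched RefSeq by gene ID.

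The log2 signal of the old low-fat array was subtracted from that of the old high-fat array. Features with 1 symbol and a linear signal over 50 on either old array were kept, and the brightest stood for its gene. Every gene over 2.0-fold was named, with the 15 highest and 15 lowest over 50 on both old arrays and over 1.5-fold, the 10 highest and 10 lowest with a mean signal over 500, and members of 46 gene lists. Predicted genes and microRNA genes were left out of the 15. A list was called shifted at a median of 0.2 or more in size. The members and lists were chosen with earlier results of these data known, so that no list is independent support. Counting, and the median of a set of planted genes, were tested on simulated arrays with less noise than the spread over genes here. No gene list entered that test. Promoter and microRNA sequences came from RefSeq (GRCm38.p6). Alternatives were signal floors of 25 and 100, a floor on both old or any of the 4 arrays, median centring, quantile normalization, a loess trend removed (statsmodels 0.14.6), the mean or count of all features of a gene, fold thresholds of 1.5 and 3.0, and removal of gene lists. Python 3.11.15 with pandas 2.3.3 and numpy 2.4.6 was used.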

Additional observations from a re-analysis of the deposited data

Results flagged for a closer look

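For 6 of the 13 genes over 2.0-fold in old mice, the diet difference pointed the other way by over 1.5-fold in young mice. The log2 differences of old mice were 1.24 for Fabp4, 1.14 for Adipoq, 1.13 for Tsr3, 1.07 for Cd36, 1.04 for Car3 and -1.01 for Mir151. In young mice they were -0.99 for Fabp4, -1.23 for Adipoq, -0.67 for Tsr3, -0.85 for Cd36, -1.11 for Car3 and 0.90 for Mir151. The difference between the ages was not tested, since each rests on 1 array per diet.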

How the results depend on the processing

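The 13 genes over 2.0-fold numbered 10 to 16 under other floors, scalings and feature rules, with the same direction for each of the 13 wherever it was still measured. A floor on both old arrays left 3 lower genes in place of 6, since Alb, Serpina1c and Mir151 were under 50 on the high-fat array. A threshold of 3.0-fold left 4 genes, 1 higher and 3 lower, and one of 1.5-fold gave 142, 78 higher and 64 lower. Removing the fat, liver, muscle, mesothelial, nerve and acinar lists left 6 genes, 2 of them higher. With every feature counted, named or not, 349 were over 2.0-fold, 44 higher and 305 lower. Leaving out genes over 1.2-fold the opposite way in young mice, an alternative chosen after seeing the data, left 6 genes over 2.0-fold, 1 of them higher, and 67 over 1.5-fold, 35 higher and 32 lower. Quantile normalization took Mir151 to -0.96 and Plin1 to 1.04, and the mean of the features took Tsr3 to 0.95. The hepatocyte median ranged from -0.53 to -0.03 with the floor. No paired analysis was possible because each group has 1 sample. With 1 array per group, no difference could be set against the spread between mice.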
